A study of Mus musculus with 6 samples.

Results

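Astrocytes take up glucose, break it down to pyruvate by glycolysis, reduce part of the pyruvate to lactate for export to neurons, and hold nearly all of the brain's glycogen. Each step is run by a family of isozymes that differ in the cell types that use them. Aldoc, Ldhb, Pygm and Pygb are known as astrocyte or brain forms, and Hk2, Hk3 and Pygl are found in macrophages and other blood-derived cells. The 38 genes described here were chosen by symbol for these roles, and all 38 of the 24421 symbols listed per library were found and had enough signal to be tested. They comprise glucose transporters, the enzymes of glycolysis, the fructose-2,6-bisphosphate enzymes that set its rate, lactate dehydrogenases and lactate transporters, the enzymes of glycogen synthesis and breakdown with 2 subunits that direct a phosphatase to glycogen, and the kinases that switch off pyruvate dehydrogenase.

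The genes were measured by RNA-seq in cells sorted from the olfactory bulb of adult male mice, in 3 control and 3 Sox9 KO libraries of 1 mouse each. All mice had received AAV-GFAP-iCre-P2a-TurboRFP in the bulb, a virus in which the GFAP promoter, active in astrocytes, drives Cre and a red fluorescent protein, and the red cells were collected 4 weeks later. Sox9 KO mice were Sox9fl/fl, so that Cre removed the floxed part of the gene of the transcription factor Sox9, and controls were C57BL/6J mice without floxed alleles that carried the same virus and the same Cre. The gate was on the red protein, and the collected cells were not sorted again to measure purity. The study states that purity was judged instead from cell type markers in the RNA-seq. Values are given as normalized counts, which are reads divided by 1 size factor per library. Wherever 3 values are listed, they are replicates 1, 2 and 3 of the group in that order, and errors after ± are SDs over the 3 libraries.

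Sox9 itself stood at 5185, 6562 and 4921 normalized counts in the controls and at 52.6, 64.3 and 57.7 in the KO libraries. The libraries held 18242129 to 86906527 reads on genes, and 1 read was worth 0.395 to 1.58 normalized counts. Markers of cell types also moved with the genotype. All 12 astrocyte markers on the list used here were lower in KO (median log2 fold change −3.84, range −6.54 to −2.72), and their summed level was 464098 to 518216 normalized counts in control and 32591 to 42203 in KO. All 12 microglia markers were higher (median 1.99, range 1.43 to 2.42), and their sum was 181175 to 206748 in control and 652635 to 769333 in KO. The lowest value among the astrocyte markers is that of Sox9 itself. Astrocyte and microglia markers were present in all 6 libraries. Of 12 neuron markers 11 were lower, with a sum of 19968 to 27130 in control and 2797 to 4994 in KO. Neutrophil markers stood apart in control replicate 2, where their sum was 5058, and came to 585 and 1129 in the other controls and to between 121 and 585 in KO. All 10 oligodendrocyte markers and 7 of 8 olfactory ensheathing cell markers were lower, and border macrophage and monocyte markers (2 higher and 4 lower of 9) and endothelial and mural markers (2 and 4 of 9) went both ways. Both erythroid markers tested were lower, with control replicate 2 again apart (Alas2 at 86.2, 343 and 83.5 and Slc4a1 at 7.31, 114 and 9.46 in the controls), and the 4 globin genes on that list were at 0 in every library. The part of these shifts in the values below was not tested, and in these bulk samples fewer cells of a type and less RNA per cell cannot be told apart.

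In KO, 23 of the 38 genes (60.5%) were called lower and 7 (18.4%) higher, and 8 were not called. A call needed an adjusted p under 0.05 from limma, with Benjamini-Hochberg adjustment over all 18413 genes tested, and a change of at least 1.5-fold. Among all genes tested, 28.8% were called lower and 22.2% higher by the same rule. The median log2 fold change was −0.89 over the 38 genes and −0.07 over all genes. In 25 of the 38 genes every KO library lay below every control library, where 34.7% of all genes did so, and in 6 every KO library lay above, where 32.4% of all genes did so. At least 2-fold, 16 genes were lower and 6 higher, and 6 were lower by at least 8-fold: Pfkm, Aldoc, Pygm, Ppp1r3c, Ppp1r3g and Pdk4. The replicates were close, with a median coefficient of variation of 9.95% in control and 9.66% in KO.

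**Figure D1:**
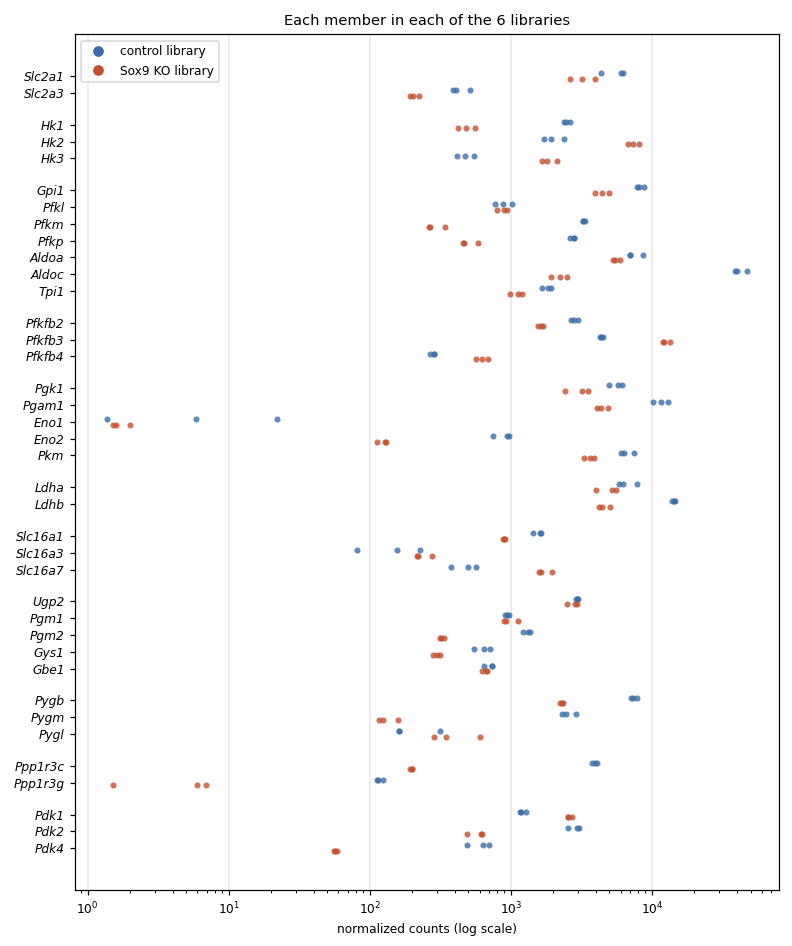
Normalized counts (horizontal log axis) of the 38 genes in each of the 6 libraries, with control libraries in blue, Sox9 KO libraries in red, and genes grouped by role from top to bottom. In 31 of the genes the groups did not overlap, with every KO library below in 25 and above in 6. Of all genes tested, 34.7% lay below and 32.4% above in this way. The widest separations toward lower KO values were those of Aldoc, Pygm, Ppp1r3c and Ppp1r3g.

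A short sequence was found in the promoter windows of genes called lower, called higher and not called at similar shares. Promoter windows of 250 bases before the transcription start, from RefSeq on GRCm38.p6, matched 36 of the 38 symbols, all but Slc2a3 and Slc16a7. The letters ACGTG, the core of the element that hypoxia-inducible factors bind, were searched on both strands (CACGT on the other strand). They stood in the windows of 22 of the 36 genes (61.1%) and in those of 22.7% of the 13482 tested genes with a window. By call, this was 13 of 22 genes called lower, 4 of 6 called higher and 5 of 8 not called. Several genes have more than 1 window, and among genes with a single window the share was 14 of 24 (58.3%) against 19.9% of 10984. Base composition was close, with a median GC content of 60.4% in the windows of these genes and 58.4% in all windows. The E-box CACGTG, which contains ACGTG, was found in 5 genes called lower, 1 higher and 1 not called, against 8.86% of tested genes. The SOX core ACAAT was found in 4 of 22 genes called lower and 1 of 6 called higher, against 22.9% of tested genes, and ACAAAG in 3 and 2, against 15.6%. For Ppp1r3c and Ppp1r3g the RefSeq starts used here lie inside the GENCODE genes given further on. A match of letters is not evidence of binding, and its absence concerns this window only. The windows of the pair of genes with the largest falls and the pair with the largest rises, among those with a single window, are shown 5′ to 3′ with matches to ACGTG or ACAAAG on either strand in capitals.
Ppp1r3g (chr13:35967656-35967905, plus strand): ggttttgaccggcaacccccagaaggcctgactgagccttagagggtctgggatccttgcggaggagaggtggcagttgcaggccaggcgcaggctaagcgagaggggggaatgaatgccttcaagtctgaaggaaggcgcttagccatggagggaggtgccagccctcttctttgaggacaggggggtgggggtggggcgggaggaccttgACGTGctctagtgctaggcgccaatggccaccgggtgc
Ppp1r3c (chr19:36736605-36736854, minus strand): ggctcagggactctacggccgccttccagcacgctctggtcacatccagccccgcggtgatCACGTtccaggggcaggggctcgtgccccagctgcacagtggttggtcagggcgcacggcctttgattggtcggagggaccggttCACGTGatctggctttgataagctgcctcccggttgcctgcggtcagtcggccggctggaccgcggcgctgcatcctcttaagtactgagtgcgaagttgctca
Hk3 (chr13:55021386-55021635, minus strand): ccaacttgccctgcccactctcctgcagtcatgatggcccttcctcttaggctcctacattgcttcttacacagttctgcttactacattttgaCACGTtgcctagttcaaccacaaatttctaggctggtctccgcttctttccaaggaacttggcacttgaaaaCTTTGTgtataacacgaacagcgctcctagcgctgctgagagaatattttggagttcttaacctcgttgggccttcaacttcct
Hk2 (chr6:82774455-82774704, minus strand): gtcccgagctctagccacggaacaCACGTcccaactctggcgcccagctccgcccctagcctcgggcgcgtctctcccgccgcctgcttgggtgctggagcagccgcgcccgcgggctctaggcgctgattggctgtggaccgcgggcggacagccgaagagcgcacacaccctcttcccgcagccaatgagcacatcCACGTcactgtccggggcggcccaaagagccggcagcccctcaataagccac
The core stood once in the windows of Ppp1r3g and Hk3 and more than once in those of Ppp1r3c and Hk2. Of the other genes lower by at least 8-fold, Pfkm and Pygm held it and Aldoc and Pdk4 did not. Of the other genes called higher that have a window, Pfkfb3 and Pygl held it and Pdk1 and Pfkfb4 did not. Any part of the core in these changes was not tested. In Ppp1r3c the capitals CACGTG read the same on both strands and form an E-box.

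Both glucose transporters fell. Slc2a1 (GLUT1, chr4:119108711-119137983 on the plus strand, GRCm38), the transporter of astrocytes and the blood-brain barrier, stood at 4334, 6252 and 6037 normalized counts in the controls and at 3946, 3184 and 2614 in the KO libraries (log2 fold change −0.77, standard error 0.17, limma adjusted p = 0.0026). Slc2a3 (GLUT3), the high-affinity transporter of neurons that myeloid cells also use, stood at 392, 412 and 514 and at 202, 192 and 223 (log2 fold change −1.08, standard error 0.16, limma adjusted p = 0.00022). The groups did not overlap for either gene; the gap was narrowest for Slc2a1, between KO replicate 1 and control replicate 1. Of both transporters per kb of exon, Slc2a1 made up 93.8% ± 0.940 in control and 94.9% ± 1.31 in KO, and these shares overlapped between the groups.

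The hexokinases, which trap glucose in the cell as glucose-6-phosphate, moved in opposite directions. Hk1 (chr10:62268855-62379908 on the minus strand), the housekeeping hexokinase of brain, fell from 2373, 2630.2 and 2446 normalized counts in the controls to 483, 554 and 425 in the KO libraries (log2 fold change −2.35, standard error 0.12, limma adjusted p = 8.4e-08). Hk2 (chr6:82725025-82774454 on the minus strand), the hexokinase that insulin, hypoxia and immune activation raise, stood at 1721, 1940.0 and 2374 and rose to 8156, 7325 and 6718 (log2 fold change 1.89, standard error 0.13, limma adjusted p = 5.4e-07). Hk3 (chr13:55005985-55021385 on the minus strand), the hexokinase of myeloid cells, rose from 475, 416 and 552 to 2132, 1791 and 1665 (log2 fold change 1.95, standard error 0.14, limma adjusted p = 8.4e-07). No control value of any of them lay within the range of the KO libraries. The share of Hk1 among the 3 hexokinases, per kb of exon, was 50.7% ± 3.93 in control and 5.11% ± 0.665 in KO. Hk2 took 35.2% ± 3.15 in control and 66.8% ± 0.403 in KO, and became the leading hexokinase in each KO library. The 3 genes summed to 1013 ± 77.1 normalized counts per kb in control and 1974 ± 205 in KO, so that the family total was 1.95 times as high in KO while its leading control member fell.

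Upper glycolysis converts glucose-6-phosphate to triose phosphates, and 5 of its 7 genes here fell, with none higher. Of all genes tested, 28.8% were called lower and 22.2% higher. Gpi1, glucose-6-phosphate isomerase, had a mean of 8262 ± 506 normalized counts in control and 4435 ± 513 in KO (log2 fold change −0.90, standard error 0.10, limma adjusted p = 2.7e-05). The 3 phosphofructokinases, which catalyse the committed step, did not move together. Pfkm (muscle type, chr15:98092589-98132451 on the plus strand) stood at 3232, 3334 and 3244 normalized counts in the controls and at 341, 262 and 266 in the KO libraries (log2 fold change −3.50, standard error 0.12, limma adjusted p = 1.2e-08). Pfkp (platelet type, chr13:6579768-6648777 on the minus strand) stood at 2616, 2824 and 2815 and at 584, 462 and 462 (log2 fold change −2.46, standard error 0.12, limma adjusted p = 6.1e-08). All control values of both genes lay far above all KO values. Pfkl, the liver type, was not called: its values of 775 to 1027 in control and 804 to 932 in KO overlapped, with a log2 fold change of −0.02 (95% interval −0.31 to 0.27, limma adjusted p = 0.9). Of the phosphofructokinases per kb, Pfkl thus took 12.1% ± 1.26 in control and 52.5% ± 3.61 in KO, and the family total was 1970.2 ± 75.1 per kb in control and 448 ± 38.7 in KO.

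The aldolases, which split fructose-1,6-bisphosphate, showed the largest shift in the share of a leading isozyme. Aldoc (chr11:78322968-78327781 on the plus strand), the brain aldolase that marks astrocytes, stood at 40156, 47075 and 38627 normalized counts in the controls and at 1922, 2503 and 2218 in the KO libraries (log2 fold change −4.25, standard error 0.12, limma adjusted p = 4.4e-09). The mean was 18.9 times as high in control as in KO, and no library came near the other group. Aldoa, the aldolase of muscle and most other tissues, had a mean of 7537 ± 933 normalized counts in control and 5584 ± 322 in KO (n = 3). Every KO library lay below every control library, but the change was under 1.5-fold and was not called (log2 fold change −0.43, 95% interval −0.66 to −0.20, limma adjusted p = 0.0046). Of the aldolases per kb, Aldoc made up 82.8% ± 0.303 in control and 25.5% ± 3.35 in KO, so that Aldoa led in each KO library and Aldoc in each control library. Counts per kb of exon were also put on a scale that sums to 1000000 per library over the 23350 genes with a GENCODE length. Rn45s was not among them. On this scale Aldoc was the highest of the 38 genes in control, at 1903 ± 175, and came 12th in KO, at 70.9 ± 12.8. Tpi1, triose phosphate isomerase, had a mean of 1801 ± 133 normalized counts in control and 1101 ± 105 in KO (log2 fold change −0.71, standard error 0.11, limma adjusted p = 0.00024).

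The bifunctional PFKFB enzymes make and degrade fructose-2,6-bisphosphate, the strongest activator of phosphofructokinase. Pfkfb3 (chr2:11471433-11554077 on the minus strand), the form with high kinase activity that drives glycolysis, stood at 4494, 4382 and 4319 normalized counts in the controls and rose to 13481, 12062 and 12132 in the KO libraries (log2 fold change 1.51, standard error 0.08, limma adjusted p = 1.5e-07). Pfkfb4 (chr9:108991778-109032228 on the plus strand) rose from 285, 284 and 266 to 685, 620.2 and 562 (log2 fold change 1.15, standard error 0.14, limma adjusted p = 3.5e-05). Pfkfb2, known from heart, fell, with a mean of 2837 ± 167 normalized counts in control and 1629 ± 65.3 in KO (log2 fold change −0.80, standard error 0.09, limma adjusted p = 2.5e-05). The groups did not overlap for any of the 3 genes. Pfkfb3 led the family in both groups, with a share per kb of 55.3% ± 1.66 in control and 81.9% ± 0.495 in KO, and the family total was 1.93 times as high in KO. In the same libraries the total of the phosphofructokinases, which the product of these enzymes activates, was lower.

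**Figure D2:**
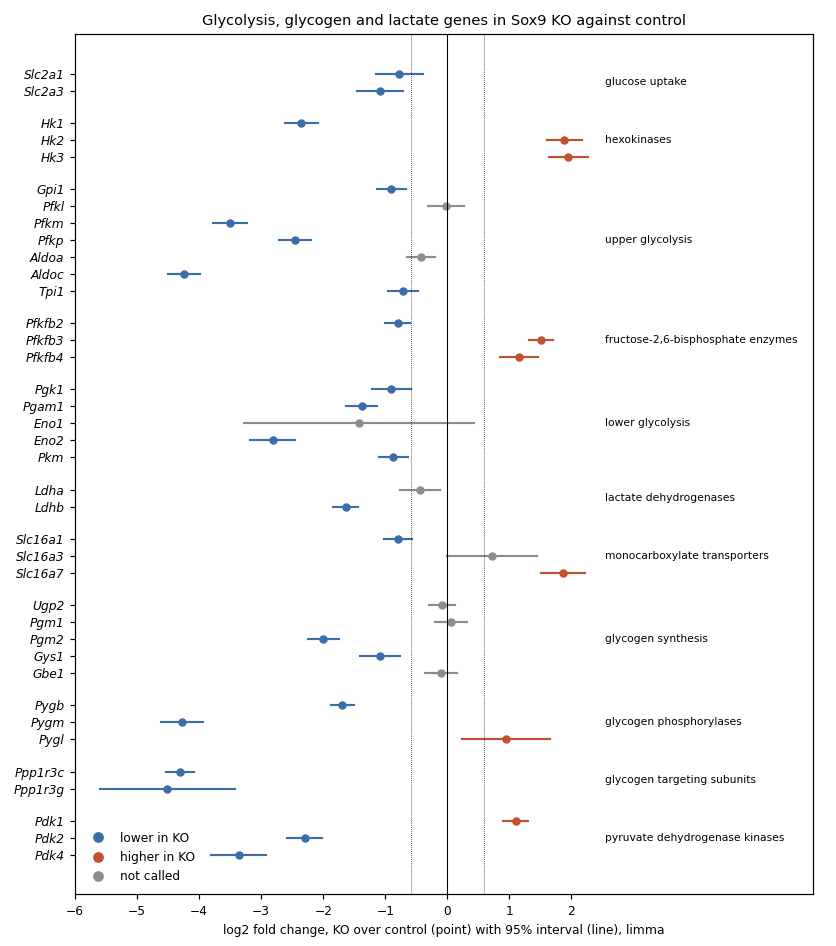
Log2 fold change of KO over control (horizontal axis) for each of the 38 genes by role, with points for the limma estimate, lines for its 95% interval and dotted lines at 1.5-fold. Blue marks the 23 genes called lower, red the 7 called higher and grey the 8 not called, and hexokinases, PFKFB enzymes, lactate transporters, phosphorylases and pyruvate dehydrogenase kinases each hold both blue and red.

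Lower glycolysis runs from the triose phosphates to pyruvate, and 4 of its 5 genes here fell, where 28.8% of all genes tested did so. Pgam1, phosphoglycerate mutase (chr19:41911923-41918660 on the plus strand), stood at 10143, 13056 and 11582 normalized counts in the controls and at 4386, 4083 and 4887 in the KO libraries (log2 fold change −1.38, standard error 0.11, limma adjusted p = 2.2e-06). Pgk1, phosphoglycerate kinase on the X chromosome, had a mean of 5634 ± 617 normalized counts in control and 3035 ± 561 in KO (log2 fold change −0.90, standard error 0.14, limma adjusted p = 0.00026), and Pkm, pyruvate kinase, one of 6594 ± 721 normalized counts in control and 3601 ± 281 in KO (log2 fold change −0.87, standard error 0.10, limma adjusted p = 3.8e-05). These genes showed no overlap between groups either, but their falls were under 3-fold on the ratio of means. Eno2 (chr6:124760053-124769673 on the minus strand), the enolase of neurons, stood at 945, 743 and 963 and at 131, 129 and 112 (log2 fold change −2.82, standard error 0.16, limma adjusted p = 1.9e-07). Its log2 fold change lay near the median of the neuron markers (−2.71, 11 of 12 lower). It also lay within the range of the astrocyte markers (−6.54 to −2.72), and oligodendrocyte markers fell too (median −2.39). The source of the change in Eno2 was not tested.

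The second enolase could not be read from its own row. Eno1, the enolase of most cells and glia, was listed at 1.38 to 22.1 normalized counts in control and at 1.52 to 1.99 in KO, from 2 to 14 reads and 1 to 4 reads. It was not called and the groups overlapped (log2 fold change −1.42, 95% interval −3.27 to 0.42, limma adjusted p = 0.16), and without control replicate 2 it was called lower (−2.23, limma adjusted p = 0.032). Without control replicate 3, which holds 14 of its reads, the value was −0.59 (limma adjusted p = 0.54). The row Eno1b, a near-identical copy elsewhere in the genome, held 7123, 7307 and 6489 in the 3 controls, and the KO libraries held 1143, 1039.8 and 1208. Of the 50-base stretches of the Eno1 transcript, 70.5% also occur in the Eno1b transcript in GENCODE, so reads of either gene could have been counted in either row. With both rows summed, an alternative chosen after seeing the data, the level was 6983 ± 418 in control and 1132 ± 84.7 in KO (log2 fold change −2.63, limma adjusted p = 1.4e-08). Other members share stretches with pseudogenes or overlapping genes, chiefly Pgk1 (68.0% of 50-base stretches), Pgam1 (41.5%), Pkm (34.4%), Ldhb (27.0%), Gpi1 (25.3%), Pfkfb2 (25.1%), Pfkp (17.1%) and Ldha (16.6%), and the levels of these rows are uncertain to that extent.

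Lactate dehydrogenase interconverts pyruvate and lactate. Ldhb (chr6:142490249-142507957 on the minus strand), whose subunit predominates in heart and in tissues that oxidise lactate, stood at 14249.5, 14529.7 and 13836 normalized counts in the controls and fell to 5026, 4463 and 4208 in the KO libraries (log2 fold change −1.64, standard error 0.09, limma adjusted p = 1.5e-07). Ldha, whose subunit favours lactate production, had a mean of 6657 ± 1047 normalized counts in control and 4925 ± 819 in KO. Its KO libraries all lay below the controls, but the difference was under 1.5-fold and was not called (log2 fold change −0.44, 95% interval −0.76 to −0.12, limma adjusted p = 0.022). Of both genes per kb, Ldhb made up 75.7% ± 2.44 in control and 57.5% ± 4.82 in KO. Per kb Ldhb was the larger part in each library, while without division by length its share in the KO libraries was 49.2%, 52.7% and 43.0%. Per kb its total with Ldha was 2.36 times as high in control as in KO. On the scale per kb that sums to 1000000, Ldhb was the highest of the 38 genes in KO, at 331 ± 20.7, followed by Ldha at 246 ± 35.2 and Pgam1 at 238 ± 21.8, and these 2 did not differ beyond their spread.

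Monocarboxylate transporters carry lactate across the membrane, and their 3 members went 3 ways. Slc16a1 (MCT1), the transporter of astrocytes, oligodendrocytes and endothelium, stood at 1610.4, 1628 and 1436 normalized counts in the controls and fell to 908, 898 and 883 in the KO libraries (log2 fold change −0.79, standard error 0.10, limma adjusted p = 5.1e-05). Slc16a7 (MCT2, chr10:125219270-125389465 on the minus strand), a high-affinity transporter best known from neurons, rose from 563, 499.6 and 375 to 1623, 1597 and 1961 (log2 fold change 1.86, standard error 0.16, limma adjusted p = 3.1e-06). Slc16a7 was higher in KO beside neuron markers that were lower in 11 of 12 cases. Its log2 fold change lay within the range of the microglia markers (1.43 to 2.42), and the source of the change was not tested. Slc16a3 (MCT4), an exporter of highly glycolytic cells, was not called, with 81.8 to 226 in control, 217 to 278 in KO and an overlap between the groups (log2 fold change 0.73, 95% interval 0.00 to 1.45, limma adjusted p = 0.076). Control replicate 2 gave the highest control value of Slc16a3, and without it the log2 fold change was 1.06 (limma adjusted p = 0.018). Without control replicate 1, the lowest, it was 0.33 (limma adjusted p = 0.26). Of the 3 genes per kb, Slc16a1 made up 82.3% ± 2.43 in control and 49.9% ± 2.19 in KO, and Slc16a7 took 9.68% ± 1.53 in control and 36.9% ± 3.33 in KO. The family total, 428 ± 35.0 per kb in control and 406 ± 12.1 in KO, overlapped between the groups (exact permutation p = 0.4, two-sided).

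**Figure D3:**
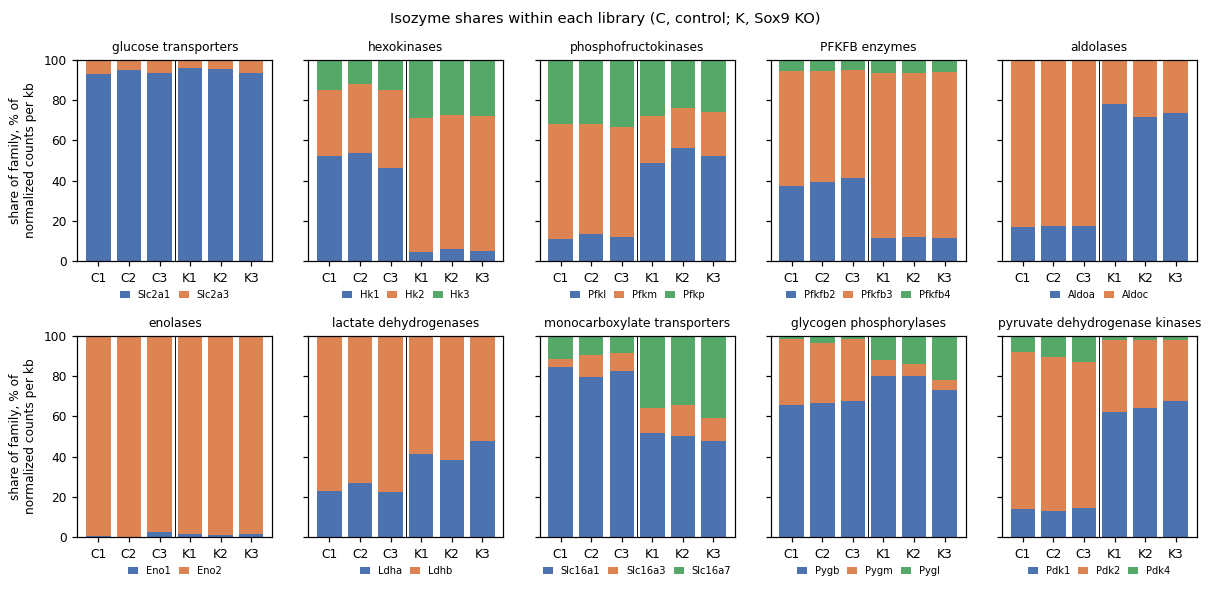
Share of each isozyme within its family (vertical axis, percent of normalized counts per kb of exon, from 0 to 100) in control libraries C1 to C3 and KO libraries K1 to K3, with 1 panel per family. In 8 of 10 families the share of the member that led in control did not overlap between the groups. Shares in other groups of genes were not computed. Of all genes tested, 34.7% lay wholly below and 32.4% wholly above in KO. The leading member changed from Hk1 to Hk2, Pfkm to Pfkl, Aldoc to Aldoa and Pdk2 to Pdk1.

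Glycogen is built from glucose-1-phosphate through UDP-glucose, and 2 of the 5 genes for its synthesis fell, with none higher. With so few genes, this count cannot be told from the 28.8% of all genes tested that were called lower. Ugp2, which makes UDP-glucose, was the highest of them per kb and was not called, with 2933, 2987 and 2911 normalized counts in the controls against 2864, 2508 and 2952 in KO (log2 fold change −0.09, 95% interval −0.29 to 0.12, limma adjusted p = 0.42). Gys1 (chr7:45434844-45456619 on the plus strand), the glycogen synthase of muscle and brain, stood at 649, 709.5 and 544 and fell to 313, 283 and 298 (log2 fold change −1.08, standard error 0.14, limma adjusted p = 8.5e-05). Gbe1, the branching enzyme, was not called, with a mean of 706 ± 48.7 normalized counts in control and 657 ± 29.3 in KO (log2 fold change −0.10, 95% interval −0.36 to 0.15, limma adjusted p = 0.46). Other scalings moved the uncalled pair: Ugp2 was at −0.33, −0.42 and −0.32 with equal library totals, totals without Rn45s and quantile normalization, and Gbe1 at −0.34, −0.43 and 0.047.

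The phosphoglucomutases, which link glucose-6-phosphate to glucose-1-phosphate, differed from each other. The row named Pgm2 stood at 1324, 1358 and 1215 normalized counts in the controls and at 315, 320.2 and 336 in the KO libraries (log2 fold change −2.001, standard error 0.11, limma adjusted p = 1.7e-07), with no overlap. The row named Pgm1 had a mean of 939 ± 24.2 normalized counts in control and 980.4 ± 120.5 in KO and was not called (log2 fold change 0.06, 95% interval −0.20 to 0.31, limma adjusted p = 0.69). In mouse nomenclature these names were exchanged between the 2 loci, and the symbols in the files include older names, so which locus each row measures was not settled here.

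The phosphorylases release glucose-1-phosphate from glycogen, and 2 of the 3 fell, where 28.8% of all genes tested were called lower. Pygm (chr19:6384399-6398459 on the plus strand), the muscle-type phosphorylase that astrocytes also use, stood at 2882, 2321 and 2475 normalized counts in the controls and at 158, 124 and 115 in the KO libraries (log2 fold change −4.27, standard error 0.15, limma adjusted p = 1.3e-08). Pygb (chr2:150786735-150831758 on the plus strand), the brain type, stood at 7783, 7053 and 7375 and at 2218, 2298 and 2353 (log2 fold change −1.69, standard error 0.08, limma adjusted p = 6.9e-08). Both fell with no overlap, by 19.3 and 3.23 times on the ratio of means. Pygl, the liver type that myeloid cells use, was called higher at 162 to 312 in control and 285 to 606 in KO (log2 fold change 0.95, standard error 0.32, limma adjusted p = 0.025), but the groups overlapped. Control replicate 2 gave the highest control value of Pygl and KO replicate 3 the highest KO value, and the call was lost without KO replicate 3 (log2 fold change 0.63, limma adjusted p = 0.1), without control replicate 1 (0.79, 0.091) and without control replicate 3 (0.79, 0.096). Pygb led the family in both groups with 66.5% ± 1.02 in control and 77.8% ± 4.05 in KO, Pygm took 31.2% ± 1.59 in control and 6.16% ± 1.47 in KO, and the family total was 3.77 times as high in control.

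The 2 regulatory subunits that bring protein phosphatase 1 to glycogen, where it activates the synthase and inactivates phosphorylase, had the largest falls of the 38 genes. Ppp1r3c (PTG, chr19:36731731-36736653 on the minus strand) stood at 4087, 3976 and 3749.8 normalized counts in the controls and at 199.5, 199 and 194 in the KO libraries (log2 fold change −4.31, standard error 0.10, limma adjusted p = 2.5e-09). The KO libraries differed little from each other, and the mean was 19.9 times as high in control. Ppp1r3g (chr13:35958839-35970388 on the plus strand) stood at 113, 125 and 115 and at 6.95, 5.92 and 1.52 (log2 fold change −4.51, standard error 0.49, limma adjusted p = 1.9e-05). The KO values of Ppp1r3g rest on 7, 15 and 1 reads, against 77, 181 and 73 in the controls. Both promoter windows, printed above, hold the letters ACGTG.

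Pyruvate dehydrogenase kinases inhibit the enzyme that passes pyruvate to the mitochondria. Here 2 of the 3 fell and 1 rose, where 28.8% of all genes tested were called lower and 22.2% higher. Pdk2 (chr11:95026258-95041354 on the minus strand), the most widespread form, stood at 3025, 2933 and 2536 normalized counts in the controls and at 624, 615 and 489 in the KO libraries (log2 fold change −2.30, standard error 0.13, limma adjusted p = 1.4e-07). Pdk4 (chr6:5483351-5496309 on the minus strand), the form that fasting and fatty acids raise, stood at 485, 634 and 695 and at 58.6, 56.5 and 56.2 (log2 fold change −3.37, standard error 0.20, limma adjusted p = 2.1e-07). Pdk1 (chr2:71873224-71903858 on the plus strand), the form that hypoxia-inducible factor raises, rose from 1273, 1165 and 1188 to 2525, 2696 and 2558 (log2 fold change 1.10, standard error 0.09, limma adjusted p = 2.3e-06). None of these groups overlapped. Of the 3 kinases per kb, Pdk2 made up 75.5% ± 2.73 in control and 33.1% ± 2.87 in KO, and Pdk1 took 14.0% ± 0.810 in control and 64.8% ± 2.82 in KO. The total of the kinases was 1667 ± 95.2 per kb in control and 773 ± 42.0 in KO.

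Across the 10 isozyme families, the share of the member that led in control overlapped between the groups only in the glucose transporters and in the enolases, whose Eno1 row was too low to use. For each of the other 8 families the exact permutation p was 0.1 (two-sided), the smallest that 3 against 3 libraries allow, so none could pass 0.05. Per kb, the leading member was another in KO in 4 of the 10 families. Without division by exon length it was another in 6, with Ldha in place of Ldhb and Slc16a7 in place of Slc16a1 as well. Shares are taken within a library and do not depend on its scaling. Shares in other groups of genes were not computed, so these counts of families have no background of their own. Among single genes, 34.7% of all tested lay wholly below and 32.4% wholly above in KO. Without division by exon length the share differences kept their direction, with that of Pfkm at −30.0 percentage points in place of −33.9 and that of Slc16a1 at −39.8 in place of −32.3.

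The genes were also set beside the marker lists. Log2 fold changes within the range of the astrocyte markers were measured for 7 of the 38 genes (Pfkm, Aldoc, Eno2, Pygm, Ppp1r3c, Ppp1r3g and Pdk4) and for 9.18% of all genes tested. Those within the range of the microglia markers were measured for 4 (Hk2, Hk3, Pfkfb3 and Slc16a7) and for 7.52% of all genes tested. The other 27 genes lay outside both ranges. The astrocyte markers highest in mean, Slc1a2 and Slc1a3, had log2 fold changes of −4.30 and −2.72, and the microglia marker Csf1r one of 1.995.

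**Figure D4:**
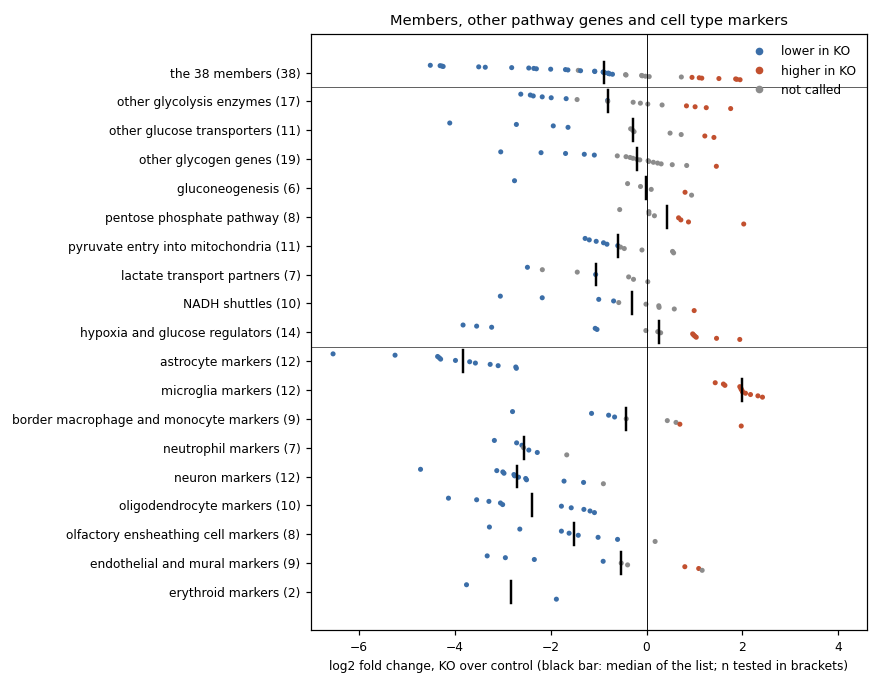
Log2 fold change of KO over control (horizontal axis) of each tested gene, by list, with the 38 genes at the top, other pathway lists in the middle and cell type markers at the bottom. Blue points were called lower, red higher and grey neither, and black bars mark medians, which lay at −0.89 for the 38 genes, −3.84 for astrocyte markers and 1.99 for microglia markers.

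Other genes of the same pathways moved in both directions. Among all genes tested, 28.8% were called lower and 22.2% higher, and differences of the lists from these shares were not tested. Of 17 other glycolysis genes 7 were lower and 4 higher. Gapdh, the dehydrogenase often used as a reference gene, was among the lower ones, at 20064, 22665 and 19991 normalized counts in the controls against 11664, 10421 and 13794 in KO (log2 fold change −0.81, standard error 0.12, limma adjusted p = 0.00013). The Gapdh row shares 82.5% of its 50-base stretches with other transcripts, chiefly pseudogenes. Of 11 other glucose transporters 4 were lower and 2 higher, the latter being Slc2a5 (the fructose transporter of microglia, log2 fold change 1.41) and Slc2a9 (a urate transporter, 1.22). Of 19 other glycogen genes 5 were lower and 1 higher, and the latter was Phka2, a phosphorylase kinase subunit (log2 fold change 1.46, limma adjusted p = 6.3e-07). Of 6 gluconeogenesis genes 1 was lower, Pcx, the pyruvate carboxylase that glia use to refill the citric acid cycle (log2 fold change −2.76, standard error 0.15, limma adjusted p = 1.1e-07), and 1 higher, Pck2 (log2 fold change 0.80). With equal library totals, and with totals without Rn45s, Pck2 stood at 0.56 and 0.48 and was not called, and the list had 2 genes lower and none higher.

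Counts for the routes that leave glycolysis are given beside the 22.2% higher and 28.8% lower of all genes tested, and differences between these lists were not tested. In the pentose phosphate pathway 4 of 8 genes were higher and none lower, with Pgd at a log2 fold change of 0.67 and Taldo1 at 0.72. This count depended on the scaling, with 2 higher and 1 lower at equal library totals, 1 and 1 when Rn45s was left out of the totals, and 3 and 1 after quantile normalization. For pyruvate entry into mitochondria 6 of 11 genes were lower and none higher, with the pyruvate dehydrogenase subunits Pdhb at −0.83 and Dlat at −1.19, and quantile normalization gave 6 lower and 2 higher. Of 7 lactate transport partners 2 were lower and none higher, both at low levels: Slc16a4 (log2 fold change −1.06) and Slc5a12 (−2.49). With equal library totals, and with totals without Rn45s, 4 of the 7 were lower. Among 10 genes of the shuttles that carry NADH electrons into mitochondria 4 were lower and 1 higher, with Gpd2, the mitochondrial glycerol phosphate dehydrogenase, at −2.18 and Mdh2 at −0.997. Of 14 regulators of hypoxia and glucose responses 5 were lower and 6 higher. Of the genes for hypoxia-inducible factor alpha subunits, 1 rose and 2 fell. Hif1a stood at 5154, 6355 and 6086 in the controls against 10759, 11992 and 11473 in KO (log2 fold change 0.96, standard error 0.10, limma adjusted p = 1.4e-05), and Epas1, which encodes HIF-2 alpha, at 15958, 16536 and 12596 and 1014, 1155 and 1773 (log2 fold change −3.55, standard error 0.19, limma adjusted p = 1.1e-07). Hif3a, named after its values were seen, had a mean of 988 ± 95.2 normalized counts in control and 111 ± 44.5 in KO (log2 fold change −3.23, standard error 0.28, limma adjusted p = 3.4e-06). None of the 3 overlapped between groups. After quantile normalization the log2 fold change of Hif1a was 0.51, under 1.5-fold.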

How the data were processed

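Per the labels and the study's methods, reads were mapped to mm10 with STAR 2.5.0a, counted per gene and normalized with DESeq2 1.20.0 by the authors. For the annotation and for strandedness, the settings were not given in the sources used here. Deposited signal values, 1 per gene and library, carry the name RPM but were whole multiples of 1 step per library (100% of values, within 0.01 read), which equals reads divided by a median-of-ratios size factor. Genes whose mean reached 1 normalized count (18413 of 24421) entered limma 3.58.1 (R 4.3.3), which compared 3 KO with 3 control libraries on log2(normalized count + 1) without a block and with trended variance. Fold changes on this scale understate those of low genes. The limma test was checked on simulated data in which few genes changed, equally many up and down. That simulation does not cover changes in as many genes as were called here. Recovered reads were also tested with edgeR 4.0.16 and DESeq2 1.42.0. Levels per kb use the exonic length in GENCODE on GRCm38, the assembly of mm10. Isozyme shares were compared by exact permutation. With 1 mouse per library, p-values measure the spread between these mice.

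The members and lists were chosen with earlier results of these data known. All 38 members are named. Values per library are given for members called with at least 2-fold and for the highest member of each role, and of each other list at most 2 called genes with the highest mean and Gapdh. Alternatives changed the pseudocount, filter, scaling, variance trend, block, tool, thresholds and length division, and left out each library. The values of some single genes that this rule would name are left out. Protein sequences were not used here.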

Additional observations from a re-analysis of the deposited data

How the results depend on the processing

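The number of the 38 genes called stayed between 23 and 25 lower and between 6 and 8 higher under other pseudocounts, filters, scalings and tools, with the unadjusted p and with no fold threshold, and between 23 and 24 and between 6 and 8 when single libraries were left out. With edgeR and with DESeq2 it was 23 lower and 7 higher. A 2-fold threshold gave 16 lower and 6 higher. Scaling moved the median over all genes, and quantile normalization moved single genes in both directions (Slc2a1 to −1.10 and Slc2a3 to −0.66). The median was −0.07 as deposited, −0.29 with libraries scaled to the same total, −0.37 with that total taken without Rn45s and 0.20 after quantile normalization. All genes called higher and lower were 4090 and 5299 as deposited, 2936 and 6191 at equal totals, 2630 and 6597 without Rn45s, and 5380 and 4100 after quantile normalization. The median over the 38 genes moved to −1.13 at equal totals and to −1.21 without Rn45s, and lay between −0.94 and −0.80 when single libraries were left out.

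Uncalled genes that changed sign were Pfkl (0.042 after quantile normalization, 0.0081 with TMM factors, 0.022 with edgeR, and −0.12 to 0.083 without single libraries), Pgm1 (−0.19 at equal totals, −0.27 without Rn45s, and −0.042 to 0.12 without single libraries) and Gbe1 (0.047 after quantile normalization). No called gene changed sign. Aldoa and Ldha were called lower at equal totals (−0.67 and −0.68), without Rn45s (−0.75 and −0.76) and after quantile normalization (−0.85 and −0.83), and Eno1 without control replicate 2 (−2.23, limma adjusted p = 0.032). Pygl lost its call at both totals (0.71 and 0.62) and without the variance trend (limma adjusted p = 0.088). Slc16a3 was called after quantile normalization (1.319). The cause was not tested.

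Same-numbered libraries did not deviate together (correlations of −0.051, −0.013 and −0.013), and no library correlated best with its own number. With a replicate block, 23 genes were called lower and 8 higher, and Slc16a3 gained a call (limma adjusted p = 0.036). Depth limits Eno1 and Ppp1r3g, where single libraries hold as little as 1 read.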
